A study of Homo sapiens with 6 samples.

Results

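The BH3-only genes of the BCL2 family were followed in MOLT-3, an established line of human T-cell leukaemia (T-ALL) cells. The 8 genes BBC3, PMAIP1, BCL2L11, BMF, BID, BAD, BIK and HRK were taken by name from the 58735 genes of the deposited tables, and all 8 were found and all 8 had enough counts to be tested. Poly(A) RNA was sequenced from cells given the solvent DMSO (3 libraries) and from cells given compound E (3 libraries). Compound E inhibits gamma-secretase, the protease whose cut releases the active intracellular part of NOTCH receptors. The study looked for genes under NOTCH1 control with a possible role in the chemosensitivity of T-ALL cells. The labels name no genetic change in either group, and give neither dose nor duration for compound E. They do not say that replicates were separate cultures, so the spread behind each p-value is that between libraries and may be technical.

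BH3-only proteins start the mitochondrial route of cell death. Each carries a short BH3 helix that fits into a groove of the survival proteins BCL2, BCL-XL, BCL-W, MCL1 and A1, and some members also bind BAX and BAK directly. When they outweigh the survival proteins, BAX and BAK form pores in the outer mitochondrial membrane and cytochrome c is set free. In lymphocytes BIM, the product of BCL2L11, is known as a main trigger of death, and PUMA (BBC3) and NOXA (PMAIP1) are known as genes that p53 and stress signals switch on.

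The stretch that encodes the BH3 helix is what the 8 genes share in sequence, so it is shown for each, with 45 bases per gene read from GENCODE release 29 transcripts and coordinates on GRCh38. Capitals mark the 24 bases that encode a leucine, 3 residues of any kind, a glycine, alanine or serine, an aspartate, any residue, and a phenylalanine, leucine or methionine.
BCL2L11, chr2:111150091-111150135, plus strand: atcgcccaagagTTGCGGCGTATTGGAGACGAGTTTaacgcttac
BBC3, chr19:47226576-47226620, minus strand: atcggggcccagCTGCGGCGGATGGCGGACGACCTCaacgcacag
PMAIP1, chr18:59902661-59902705, plus strand: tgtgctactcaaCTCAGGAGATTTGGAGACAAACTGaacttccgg
HRK, chr12:116881167-116881211, minus strand: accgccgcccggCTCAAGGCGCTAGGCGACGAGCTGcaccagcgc
BMF, chr15:40104192-40104236, minus strand: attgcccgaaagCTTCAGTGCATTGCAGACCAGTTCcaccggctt
BIK, chr22:43127704-43127748, plus strand: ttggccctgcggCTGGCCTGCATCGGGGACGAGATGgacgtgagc
BID, chr22:17739412-17739456, minus strand: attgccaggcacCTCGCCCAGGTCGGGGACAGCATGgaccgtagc
BAD, chr11:64271619-64271663, minus strand: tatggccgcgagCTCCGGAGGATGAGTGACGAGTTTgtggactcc
This pattern was written with the known BH3 helices in view, and the longest coding sequence of 8.15% of 19684 protein-coding genes also holds it. Each stretch lies within 1 coding exon. Between members the 45 bases were identical at 37.8% to 62.2% of positions, and 7 positions were the same in all 8. The stretches were lined up on the pattern, and its fixed residues force some bases to be the same in every member. Part of this identity was therefore set in advance. The closest pairs were BBC3 with BCL2L11 and BID with BIK, with 28 identical bases in each pair. Not every annotated coding transcript holds the pattern. It was searched for over the whole protein, and in these counts the place of a match was not checked. It was found in 1 of 2 for PMAIP1, 7 of 17 for BCL2L11, 4 of 9 for BMF, 4 of 11 for BID, 4 of 6 for BAD, 1 of 2 for HRK, all 4 for BBC3 and the single one of BIK. Counts here are sums over all exons of a gene, so they do not say which transcript changed.

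Library totals ran from 17316138 to 19845114 counts, and every library was kept. All 7 T-cell identity genes examined (CD3E, CD3D, CD3G, CD7, CD2, CD5 and LCK) had counts. Their sums were 2087 to 2134 CPM in DMSO libraries and 1860 to 1902 CPM in compound E libraries. CPM are counts scaled to a library's total over tested genes, with edgeR's TMM factor. The 10 markers of other blood cells summed to 14.3 to 15.9 CPM with DMSO and 14.1 to 15.2 CPM with compound E, and the B-cell gene MS4A1, the globin gene HBB and the platelet gene PF4 were at 0. Of the 7 T-cell genes 5 fell and 1 rose, and their part in the changes of BH3-only genes was not tested. In bulk RNA, fewer cells that express a gene and less of its RNA per cell cannot be told apart. Of 16926 genes tested with edgeR's quasi-likelihood test, 38.3% passed at a Benjamini-Hochberg adjusted p under 0.05, 18.9% higher and 19.4% lower with compound E.

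Against that background, 4 of the 8 BH3-only genes fell (HRK, PMAIP1, BBC3 and BCL2L11), 2 rose (BMF and BIK), and BID and BAD did not pass the test. The median log2 fold change of the 8 was -0.09, beside -0.0034 for all genes tested. The fall was at least 2-fold for PMAIP1 and HRK, where 2.63% of all tested genes fell and 1.20% rose that far. Every library of 1 group lay above every library of the other for 7 of the 8 members, BAD being the exception, and for 46.8% of all tested genes.

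**Figure D1:**
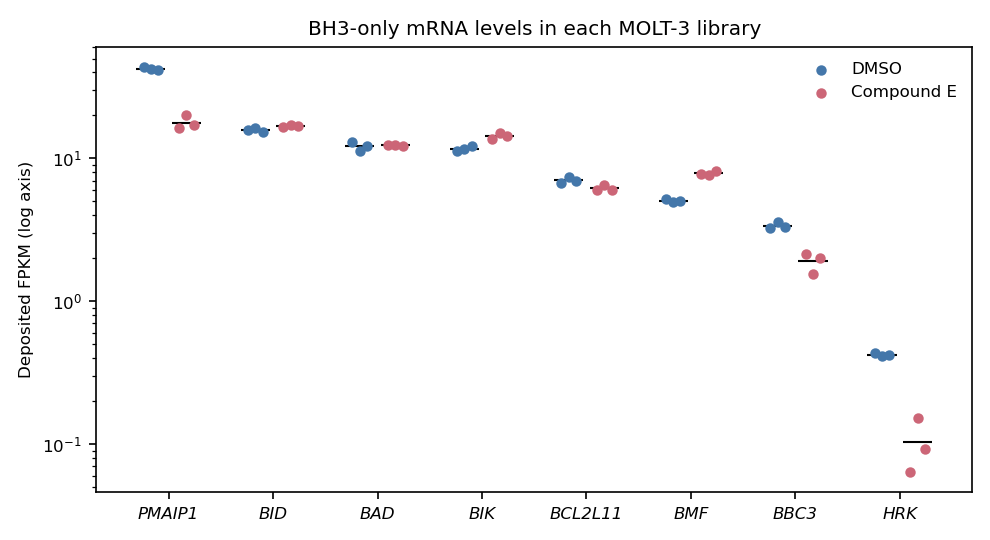
Deposited FPKM (fragments scaled to gene length and library size, log axis) of the 8 BH3-only genes in each of 3 DMSO (blue) and 3 compound E (red) MOLT-3 libraries, ordered by the DMSO mean, with black lines at group means. PMAIP1 falls from a mean of 42.5 FPKM with DMSO to 17.8 with compound E, where it overlaps BID, while BMF moves above BCL2L11.

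PMAIP1 encodes NOXA, a small protein that binds mainly MCL1 and A1 and promotes the degradation of MCL1. Its level was 98.0, 95.6 and 94.2 CPM with DMSO, against 36.4, 44.97 and 38.3 CPM with compound E. The groups lay far apart, and compound E replicate 2 was the highest of its group. The fall was 2.41-fold, a log2 fold change of -1.27 ± 0.0502 (SE; edgeR adjusted p = 8.20e-23). PMAIP1 (ENSG00000141682) lies on the plus strand of chromosome 18, from 59899948 to 59904306, and no other gene of the table overlaps it.

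HRK encodes Harakiri, which binds BCL-XL by preference and is best known from neurons and blood progenitors. Its counts were low throughout, at 58, 57 and 50 reads with DMSO and 8, 19 and 12 with compound E, or 3.00, 2.88 and 2.89 CPM against 0.438, 1.05 and 0.638 CPM. The DMSO libraries were close together, and the compound E libraries differed among themselves by more than 2-fold. The fitted fall was 4.11-fold (log2 -2.04 ± 0.260, SE; edgeR adjusted p = 3.09e-08). On the log2(FPKM + 1) scale, which compresses low genes, the difference was -0.37 (limma adjusted p = 0.000800), and with a pseudocount of 0.1 it was -1.39 (limma adjusted p = 0.00124). HRK (ENSG00000135116) lies on chromosome 12, minus strand, from 116856144 to 116881441.

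BBC3 encodes PUMA, which binds every survival protein of the family. Its level was 10.5, 11.5 and 10.6 CPM with DMSO and 6.84, 4.98 and 6.38 CPM with compound E. All 3 treated libraries were below all 3 controls, with replicate 2 the lowest. The fall was 1.79-fold (log2 -0.84 ± 0.115, SE; edgeR adjusted p = 1.36e-07). BBC3 (ENSG00000105327) lies on chromosome 19, minus strand, from 47220822 to 47232766. The microRNA genes MIR3190 and MIR3191 inside it had 0 counts in every library.

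BCL2L11 encodes BIM, and its change was the smallest of the 4 falls. The levels were 45.4, 50.2 and 46.7 CPM with DMSO and 40.5, 43.8 and 40.3 CPM with compound E. The lowest control was close above the highest treated library. The fall was 1.14-fold (log2 -0.19 ± 0.0520, SE; edgeR adjusted p = 0.00278), and it missed the threshold in limma on log2(FPKM + 1), with adjusted p = 0.0530 on the same genes and 0.103 without a filter. BCL2L11 (ENSG00000153094) lies on the plus strand of chromosome 2, from 111119378 to 111168447, inside the span of the long noncoding gene MIR4435-2HG on the other strand. The exons of the 2 genes share 727 of the 6658 exon bases of BCL2L11. MIR4435-2HG had 269, 283 and 272 counts with DMSO and 250, 196 and 247 with compound E, a log2 fold change of -0.22 ± 0.0909 (SE; edgeR adjusted p = 0.0536). The labels do not say whether counting used the strand, so reads of the shared bases cannot be told apart.

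BMF, a BH3-only protein that is held on the cell's skeleton by dynein light chain DYNLL2, rose most. Its level was 5.20, 4.92 and 5.06 FPKM with DMSO and 7.82, 7.65 and 8.23 FPKM with compound E. Both groups were tight and lay well apart. The rise was 1.55-fold (log2 0.64 ± 0.0548, SE; edgeR adjusted p = 1.85e-12). BMF (ENSG00000104081) lies on chromosome 15, minus strand, from 40087890 to 40108892. Its antisense gene BMF-AS1, which shares 461 of its 5447 exon bases, had 0 counts in every library.

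BIK, a BH3-only protein found mainly at the endoplasmic reticulum, was at 10.9, 11.2 and 11.7 CPM with DMSO and 13.1, 14.3 and 13.7 CPM with compound E. The highest control was below the lowest treated library. The rise was 1.22-fold (log2 0.29 ± 0.0886, SE; edgeR adjusted p = 0.00939), and DESeq2 did not call it (adjusted p = 0.0699). BIK (ENSG00000100290) lies on the plus strand of chromosome 22, from 43110748 to 43129712.

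BID and BAD are controlled largely at the protein level, BID by caspase 8, which cuts it to its active form, and BAD by phosphorylation through AKT and other kinases, after which 14-3-3 proteins hold it. BID was at 71.3, 73.3 and 69.2 CPM with DMSO and 74.6, 76.5 and 75.8 CPM with compound E. The groups did not overlap, but the difference of 0.08 ± 0.0403 (log2, SE) missed the threshold (edgeR adjusted p = 0.0958). BAD was at 22.6, 19.6 and 20.9 CPM with DMSO and 21.4, 21.1 and 21.1 CPM with compound E, and its treated libraries lay within the range of the controls. Its log2 fold change was 0.01 ± 0.0700 (SE; edgeR adjusted p = 0.905) and turned to -0.0020 with upper-quartile scaling and to -0.04 without DMSO replicate 2. BID (ENSG00000015475) lies on the minus strand of chromosome 22, from 17734138 to 17774770. BAD (ENSG00000002330) lies on the minus strand of chromosome 11, from 64269830 to 64284704, and shares 404 of its 1708 exon bases with GPR137 on the other strand. GPR137 had 469, 532 and 465 counts with DMSO and 476, 467 and 524 with compound E (log2 0.03 ± 0.0632, SE; edgeR adjusted p = 0.730).

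**Figure D2:**
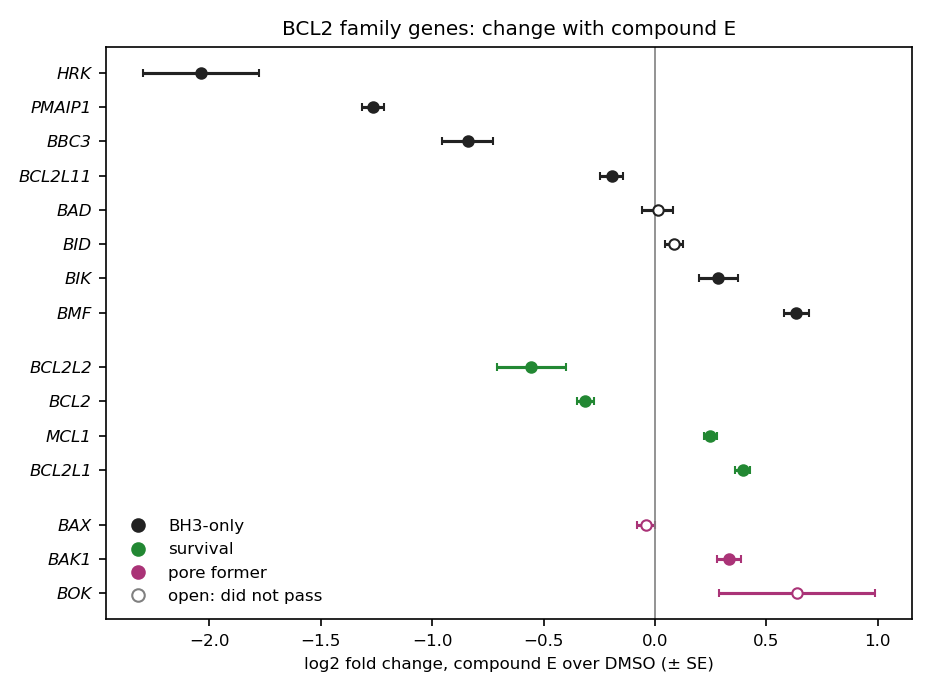
Log2 fold change of compound E over DMSO from edgeR (3 libraries per group, bars are SE) for the tested BH3-only, survival and pore-forming genes, with open circles for genes that did not pass at an adjusted p under 0.05. HRK (-2.04) and PMAIP1 (-1.27) stand farthest to the left, and BMF (0.64) and BCL2L1 (0.39) are the called genes farthest to the right.

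Levels were compared between members on the FPKM scale, which divides by gene length. With DMSO, PMAIP1 led at 42.5 ± 0.907 FPKM (SD, n = 3), followed by BID at 15.9 ± 0.454, BAD at 12.2 ± 0.892, BIK at 11.7 ± 0.402, BCL2L11 at 7.06 ± 0.363, BMF at 5.06 ± 0.139, BBC3 at 3.39 ± 0.170 and HRK at 0.423 ± 0.0109 FPKM. Only BAD and BIK overlapped among neighbours in that order. BAD had the higher mean but was above BIK in only 1 of 3 DMSO libraries. With compound E the order of the means changed in 2 places. BIK (14.3 ± 0.640 FPKM) stood above BAD (12.4 ± 0.101), and BMF (7.90 ± 0.297) above BCL2L11 (6.21 ± 0.301), in all 3 libraries in both cases. PMAIP1, at 17.8 ± 2.02 FPKM, overlapped BID at 16.9 ± 0.229 and was above it in 2 of 3 libraries. BBC3 at 1.90 ± 0.302 and HRK at 0.103 ± 0.0455 FPKM remained the lowest.

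The summed FPKM of the 8 genes was 99.6, 98.0 and 97.1 with DMSO, against 75.2, 80.4 and 76.9 with compound E, with no overlap. PMAIP1 made up 43.3% ± 0.375 of that sum with DMSO and 22.9% ± 1.80 with compound E (SD, n = 3). Without it, the sum was 55.7 ± 0.337 FPKM with DMSO and 59.7 ± 0.722 FPKM with compound E, so the lower sum came from the PMAIP1 row. The share of BMF was 5.15% ± 0.113 and 10.2% ± 0.616, that of BIK 11.9% ± 0.555 and 18.5% ± 0.210, and that of BID 16.2% ± 0.422 and 21.9% ± 0.479. Shares of BID and BAD grew without a called change of either gene, since the total shrank.

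**Figure D3:**
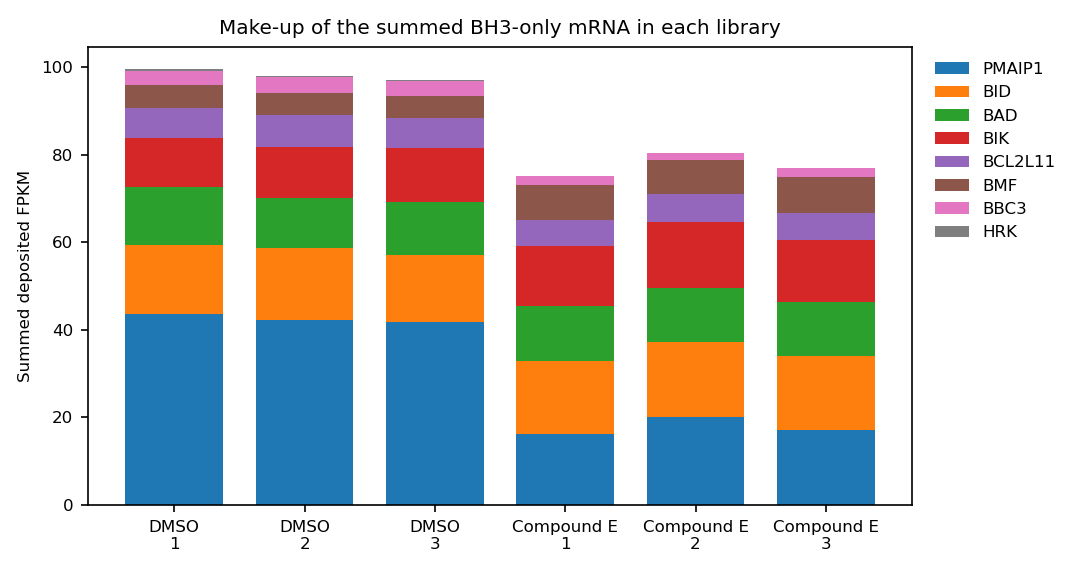
Stacked deposited FPKM of the 8 BH3-only genes in each library. The total is 97.1 to 99.6 FPKM with DMSO and 75.2 to 80.4 FPKM with compound E, and the bottom block, PMAIP1, accounts for the difference.

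The genes that BH3-only proteins act on were taken as 2 lists, 6 survival genes and 3 pore formers. Of 4 tested survival genes 2 rose and 2 fell, where 18.9% of all tested genes rose and 19.4% fell. BCL2L1, which encodes BCL-XL, rose from 111 ± 2.76 to 146 ± 3.24 CPM (log2 0.39 ± 0.0338, SE; edgeR adjusted p = 1.46e-12), and MCL1 rose from 164 ± 1.53 to 195 ± 3.29 CPM (log2 0.25 ± 0.0302; adjusted p = 9.41e-09). BCL2 fell from 87.4 ± 2.20 to 70.3 ± 1.02 CPM (log2 -0.31 ± 0.0393, SE; edgeR adjusted p = 2.15e-08). BCL2L2, the BCL-W gene, fell from 5.84 ± 1.07 to 3.97 ± 0.635 CPM (log2 -0.56 ± 0.155, SE; edgeR adjusted p = 0.00401) and was not called by limma on log2 FPKM (adjusted p from 0.0609 to 0.219). BCL2A1, with at most 2 counts, and BCL2L10, with at most 8, were too low to test. Among pore formers, BAK1 rose from 37.4 ± 0.549 to 47.1 ± 3.38 CPM (log2 0.33 ± 0.0535, SE; edgeR adjusted p = 3.08e-06), BAX was at -0.04 ± 0.0396 on the log2 scale (adjusted p = 0.453), and BOK, at 9 to 21 counts, did not pass (adjusted p = 0.154).

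The summed FPKM of the survival genes was 79.4 ± 0.952 with DMSO and 95.3 ± 0.491 with compound E (SD, n = 3). The BH3-only sum was above the survival sum in all 3 DMSO libraries and below it in all 3 compound E libraries, with a BH3-only to survival ratio of 1.24 ± 0.0271 and 0.813 ± 0.0320. That crossing depends on the division by gene length. On CPM, which does not divide by length, the BH3-only sum was below the survival sum in every library of both groups, with ratios of 0.783 ± 0.0167 and 0.583 ± 0.0169 (SD, n = 3). These are mRNA sums over genes, and protein was not measured in the files used.

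Ratios of FPKM within a library do not depend on scaling between libraries, and 8 of them were formed for BH3-only genes and the survival genes whose proteins they are known to bind. PMAIP1 to MCL1 was 1.18, 1.14 and 1.12 with DMSO and 0.360, 0.452 and 0.391 with compound E, above 1 in each control and in no treated library. On CPM it was below 1 in every library, at 0.586 ± 0.0171 with DMSO and 0.205 ± 0.0241 with compound E (SD, n = 3), so which of the 2 is higher in controls depends on the length divisor, while the log2 difference between groups, -1.52, does not. HRK to BCL2L1 was 0.0132, 0.0122 and 0.0128 with DMSO and 0.00145, 0.00355 and 0.00206 with compound E. Its log2 difference was -2.53, and -1.79 with 0.1 FPKM added to both sides, since HRK lies near or below that amount in treated libraries. BBC3 to the survival sum was 0.0426 ± 0.00167 and 0.0199 ± 0.00307, and BCL2L11 to the survival sum was 0.0889 ± 0.00352 and 0.0651 ± 0.00350 (SD, n = 3). BID to the survival sum was 0.200 ± 0.00495 and 0.178 ± 0.00315. BMF to the survival sum went the other way, at 0.0638 ± 0.00251 and 0.0828 ± 0.00281. The size of these differences to the survival sum depends on the length divisor, and their direction did not. On the log2 scale they were -0.171 on FPKM and -0.0867 on counts for BID, and -0.449 and -0.364 for BCL2L11. For BBC3 they were -1.11 and -1.03, and for BMF 0.377 and 0.462. BAD was lower against BCL2L1, at 0.368 ± 0.0329 and 0.282 ± 0.00724, and higher against BCL2, at 1.66 ± 0.140 and 2.08 ± 0.0477. The survival genes changed as well (log2 0.25 for MCL1, 0.39 for BCL2L1 and -0.31 for BCL2). A ratio can thus separate without a called change of its BH3-only gene, as for BAD and BID. Among single tested genes 46.8% did not overlap, and no such share was taken over ratios of other genes. In each of the 8 ratios the groups did not overlap, which is not a result about the BH3-only genes alone. The exact two-sided permutation test gave p = 0.1 for each, also after Benjamini-Hochberg adjustment over 8, which is the smallest p that 3 against 3 libraries allow, so none can pass 0.05.

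**Figure D4:**
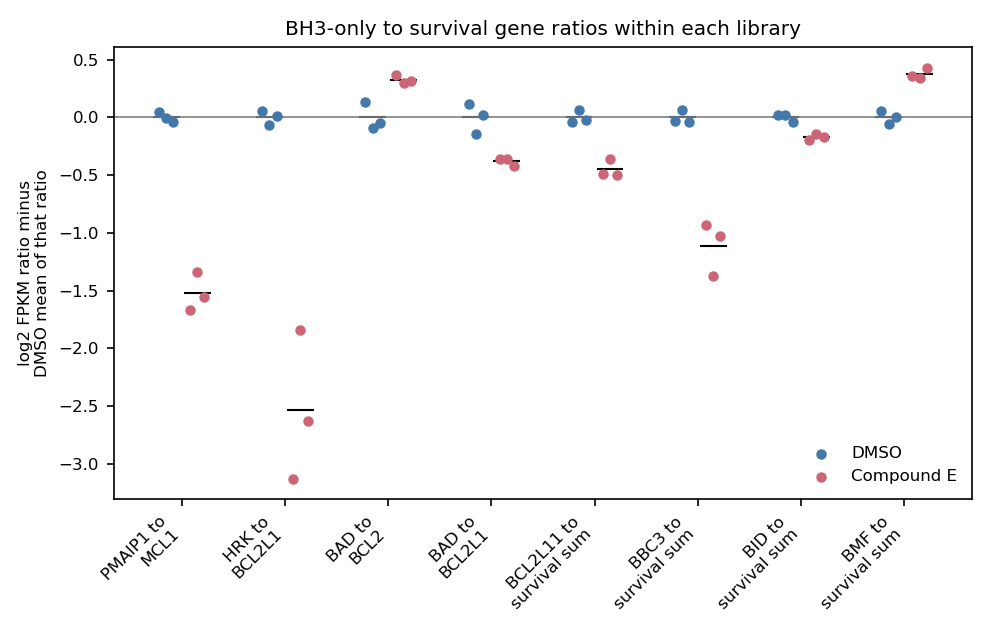
Log2 of the FPKM ratio of a BH3-only gene to a survival gene, or to the sum of the 6 survival genes, in each library, with the DMSO mean of that ratio set to 0 and black lines at group means. The ratios with HRK (-2.53), PMAIP1 (-1.52) and BBC3 (-1.11) are farthest below the controls, and those of BMF to the survival sum (0.38) and BAD to BCL2 (0.33) lie above.

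Of 7 tested genes with BH3-like motifs outside the core family, 3 rose and 2 fell, with a median log2 fold change of 0.06. The shares over all tested genes were 18.9% higher and 19.4% lower. BNIP3, a mitophagy receptor, rose by 0.34 ± 0.0685 and its relative BNIP3L fell by 0.12 ± 0.0319 on the log2 scale, and the ubiquitin ligase HUWE1, which targets MCL1, fell by 0.24 ± 0.0253 (SE; edgeR adjusted p of 9.34e-05, 0.00171 and 4.01e-10). MOAP1 (0.13) and BECN1 (0.11) were called at adjusted p = 0.0301 and 0.0390. MOAP1 lost the call without DMSO replicate 2 or 3 or compound E replicate 1 or 2 (adjusted p up to 0.115), and BECN1 without DMSO replicate 1 or 3 or compound E replicate 2 (up to 0.139). With all libraries, MOAP1 and BECN1 also missed the threshold in DESeq2 (adjusted p = 0.120 and 0.126) and in edgeR with upper-quartile scaling (0.0586 and 0.0785).

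Among 21 genes whose products act on BH3-only proteins, 10 rose and 1 fell, with a median of 0.10. As a background for this list and the next, 18.9% of all tested genes rose and 19.4% fell. The dynein light chain genes DYNLL1 and DYNLL2, whose products bind BIM and BMF, rose by 0.49 ± 0.0351 and 0.26 ± 0.0305 on the log2 scale (SE; edgeR adjusted p = 9.80e-15 and 2.98e-09). MAPK3 (-0.12, adjusted p = 0.0329) was the 1 that fell, a call that did not hold without DMSO replicate 1 or 3 or compound E replicate 2 or 3 (adjusted p up to 0.169). With all libraries, MAPK3 was also not called by DESeq2 (adjusted p = 0.173) or by limma on log2 FPKM (0.0818 to 0.174). Downstream of the mitochondrion 4 of 10 rose and 1 fell, with a median of 0.10. The apoptosome gene APAF1 rose by 0.22 ± 0.0626 on the log2 scale (SE; edgeR adjusted p = 0.00519). APAF1 missed the threshold in limma on unfiltered log2(FPKM + 1), with adjusted p = 0.0690. CASP9, the apoptosome caspase, fell by 0.29 ± 0.0990 (edgeR adjusted p = 0.0176). CASP9 was not called without compound E replicate 1 (adjusted p = 0.0924) or 2 (0.0911). With all libraries, it was also not called by DESeq2 (adjusted p = 0.121) or by limma on log2 FPKM (0.0815 to 0.199).

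Of 11 tested transcription factors that are known to drive BH3-only genes, 8 fell and 1 rose, with a median of -0.30. Among all tested genes 19.4% fell and 18.9% rose. ATF4, the regulator of the integrated stress response, fell from 743 ± 4.39 to 357 ± 5.27 CPM (log2 -1.06 ± 0.0253, SE), DDIT3, which encodes its partner CHOP, fell from 13.9 ± 0.161 to 5.18 ± 0.0872 CPM (-1.42 ± 0.104), and MYC fell by 0.84 ± 0.0286 on the log2 scale. Their edgeR adjusted p were 4.75e-30, 1.96e-14 and 5.15e-25. RELA rose by 0.12 ± 0.0392 (edgeR adjusted p = 0.0121), a call lost without DMSO replicate 2 (0.0894) or compound E replicate 3 (0.0676). It was also lost in limma on unfiltered log2(FPKM + 1), with adjusted p = 0.0785.

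PMAIP1 and BBC3 are known targets of p53 and of the ATF4 and CHOP pair, and other targets of each were counted. Both lists were written with earlier results of these data known, so their counts are a description and not an independent test. Of 18 p53 targets outside the family 4 rose and 4 fell, with a median of 0.0031. Over all tested genes 18.9% rose and 19.4% fell. BTG2 (0.87), TP53INP1 (0.47) and RRM2B (0.23) were higher, and SESN2 (-2.16), TNFRSF10B (-0.75) and CCNG1 (-0.51) were lower, on the log2 scale. All 15 tested ATF4 and CHOP targets fell, 12 of them at least 2-fold, with a median of -1.93. The smallest edgeR p there were those of SLC7A5 (-1.57), PSAT1 (-1.93) and SLC7A11 (-3.65), 2 amino acid transporter genes and a serine synthesis gene. SESN2 stands in both lists, and DDIT3 and ATF3 stand among the transcription factors as well. The part of either pathway in the falls of PMAIP1, BBC3 and HRK was not tested.

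**Figure D5:**
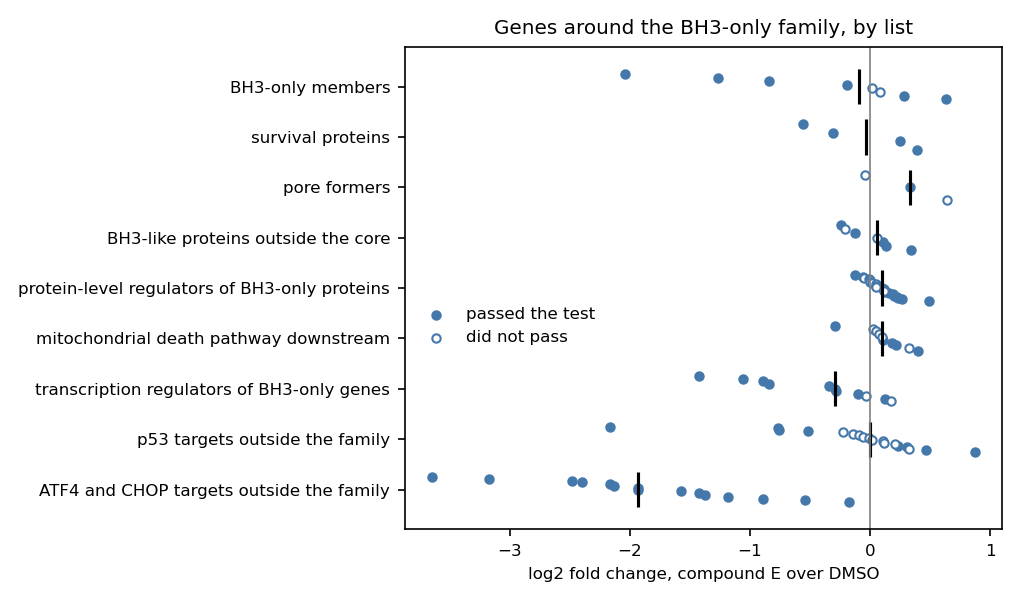
Log2 fold change of compound E over DMSO for each tested gene, by list, with filled points for genes that passed at an adjusted p under 0.05, open points for the others and black bars at list medians. The ATF4 and CHOP targets lie below 0 throughout (median -1.93), whereas BH3-only genes (median -0.09) and p53 targets (median 0.0031) lie on both sides. The lists were written with earlier results of these data known.

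The sequence before the start of the 3 members with the largest falls and of BMF, which rose most, is shown because these genes moved in opposite directions. The windows are from RefSeq (GRCh38.p14) and end before the first base that GENCODE assigns to the gene. Capitals mark matches to 5 motifs searched on both strands, which are TGACG (an ATF and CREB half-site), TGATGNAA (a composite C/EBP and ATF element), TGGGAA (the core bound by RBPJ, the DNA-binding partner of NOTCH), CACGTG (an E-box) and GTAAACA (a FOXO site).
PMAIP1, chr18:59899746-59899947, plus strand: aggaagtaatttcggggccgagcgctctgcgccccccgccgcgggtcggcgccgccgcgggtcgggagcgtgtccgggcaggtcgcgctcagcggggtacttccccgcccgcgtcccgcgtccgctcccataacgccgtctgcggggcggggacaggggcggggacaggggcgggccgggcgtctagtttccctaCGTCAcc
HRK, chr12:116881442-116881691, minus strand: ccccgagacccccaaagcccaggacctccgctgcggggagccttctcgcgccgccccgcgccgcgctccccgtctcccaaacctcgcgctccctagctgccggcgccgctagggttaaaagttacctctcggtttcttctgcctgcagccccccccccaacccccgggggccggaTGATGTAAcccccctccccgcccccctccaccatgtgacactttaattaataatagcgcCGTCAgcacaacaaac
BBC3, chr19:47232767-47232917, minus strand: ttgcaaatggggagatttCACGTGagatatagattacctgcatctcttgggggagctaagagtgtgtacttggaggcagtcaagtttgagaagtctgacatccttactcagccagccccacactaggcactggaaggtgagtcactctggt
BMF, chr15:40108893-40109129, minus strand: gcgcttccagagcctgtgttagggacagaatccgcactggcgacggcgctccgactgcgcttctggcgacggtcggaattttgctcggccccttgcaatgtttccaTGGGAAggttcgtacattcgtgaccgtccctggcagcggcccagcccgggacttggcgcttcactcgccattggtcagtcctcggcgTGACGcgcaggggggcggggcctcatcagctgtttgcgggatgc
PMAIP1 held TGACG on the strand opposite to the one printed, where the printed letters are CGTCA. HRK also held TGACG opposite to its printed strand, shown as CGTCA, and TGATGNAA on the printed strand. BBC3 held CACGTG, and BMF held TGGGAA and TGACG in 1 of its 2 windows. Among the 7 members with a window, GTAAACA stood only in that of BCL2L11, in 1 of 1 window, which is not printed here. Most of that window lies within the span that GENCODE gives BCL2L11, so the match need not lie before the gene. The same motifs stood in windows of members that did not pass the test. TGACG was in 2 of 2 windows of BAD, and TGGGAA and CACGTG were in 2 of 5 windows of BID each. None of the 5 motifs stood in the 145 bases before the first base that GENCODE assigns to BID. Over all 35116 promoter windows of 300 bases, TGACG occurred in 24.6%, TGGGAA in 24.03%, CACGTG in 7.26%, TGATGNAA in 3.62% and GTAAACA in 3.42%. These shares and the window counts of members are over whole windows. The printed stretches are shorter, from 151 bases for BBC3 to 250 for HRK, so shares in stretches of their length would be lower. The matches describe these letters and not binding.

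By Pearson correlation of log2 CPM over the 6 libraries, the protein-coding genes most like PMAIP1 were ARHGAP29, CEBPE and SLC16A6, and those most like BMF were TACC3, SNN and SLC20A1, each with r = 0.999. Many genes came close, since all share the same 2 treatment groups. Of 10116 genes compared, 964 reached r = 0.95 with PMAIP1 and 1088 with BMF. The log2 fold changes were -0.92 for ARHGAP29, -1.69 for CEBPE, -1.50 for SLC16A6, 0.50 for TACC3, 0.33 for SNN and 0.45 for SLC20A1.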

How the data were processed

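The authors deposited raw read counts per gene and FPKM values for 6 libraries. Per the submitters' processing notes, HISAT2 2.0.5, featureCounts 1.5.0-p3 and DESeq2 1.16.1 were used, with no role given. Build, strand use and treatment of shared reads are not given in the labels. All 58735 gene identifiers matched GENCODE 29 (GRCh38) in start, end and strand. In the deposited FPKM table, count divided by FPKM and gene length was 1 constant per library, at 0.996 to 1.01 times the library total. Counts were fitted in R 4.3.3 with edgeR 4.0.16 (filterByExpr, TMM, quasi-likelihood F-test, treatment as the only term), with p-values adjusted over 16926 genes. The SE of a log2 fold change is |log2 fold change| over the root of F. Ratios were tested with exact permutation tests (scipy 1.17.1). Named genes are the 8 members, all survival and pore-forming genes, and the called genes with the 3 smallest p per direction in each list. Some of these are not reported here. Members and lists were chosen with earlier results of these data known. Alternatives were run with limma 3.58.1 and DESeq2 1.42.0. Replicates of a group differed by more than counting noise (chi-square per degree of freedom of 1.66 to 2.77). Promoter windows of chromosome 8 were left out of motif shares. DIABLO is listed under 2 identifiers, and the one with more counts was used.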

Additional observations from a re-analysis of the deposited data

How the results depend on the processing

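Over 18 alternatives (17 for HRK, which a filter of 5 CPM in 3 libraries removed), HRK, PMAIP1, BBC3 and BMF kept their direction and their call in each. BCL2L11 lost its call in 2 and BIK in 1, as given in the report, and BID and BAD were called in none. BAD changed sign with upper-quartile scaling (-0.0020) and without DMSO replicate 2 (-0.0368), with 0.0720 the highest value when each library was left out. With DESeq2, 1 BH3-only gene was called higher and 4 lower, beside 2 and 4 in edgeR. Over the whole table DESeq2 called 2383 genes higher and 2134 lower. On unfiltered log2 FPKM with a pseudocount of 1, 2128 genes were higher and 1874 lower, beside 3206 and 3278 in edgeR. Both settings started from 33506 genes, beside 16926 in the main edgeR fit. The PMAIP1 share of the BH3-only sum was 33.2% with DMSO and 16.5% with compound E on CPM, not divided by length, and 60.6% and 36.8% without BAD and BID. On CPM, an alternative chosen after seeing the data, the BH3-only to survival ratio was 0.783 with DMSO and 0.583 with compound E, and the PMAIP1 to MCL1 ratio 0.586 and 0.205, since these settings leave out the length divisor. The cause of the other moves above was not tested, apart from the smaller sum left without BAD and BID. With each library left out in turn, the counts of BH3-only genes stayed at 2 higher and 4 lower, those over all genes were 2838 to 3027 higher and 2833 to 3041 lower, and the PMAIP1 share was 43.1% to 43.4% with DMSO and 21.9% to 23.5% with compound E.

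No pairing of libraries by replicate number was seen, and the labels do not say whether same-numbered libraries were handled together. Same-numbered libraries had correlations of their deviations from the group means of 0.0103, -0.0191 and 0.000118. With the number as a block, 2 BH3-only genes were higher and 4 lower, and 3019 and 3119 over all genes. HRK, at 8 to 58 counts, is the member whose size of change depth limits most.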
